A study of Homo sapiens with 8 samples.

Results

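HEK293 is a human embryonic kidney cell line, and its 2 RNA-seq libraries, of 8 in the series, were compared here with the 6 libraries of 3 other human lines. The other lines were U937 (leukemic), EaHy (endothelial) and PC3M (a prostate cancer line, named PC3M-LN4 in the culture text), each with 2 libraries made from duplicate collections of cells. HEK293 cells grew in DMEM, whereas the other 3 lines grew in RPMI, with added L-glutamine for PC3M; all 4 lines received antibiotics and heat-inactivated serum. The culture medium and the identity of the line therefore cannot be told apart. The labels name no engineered change or treatment for any line. They call the line HEK293, and that name is used here, whereas the worksheet of deposited values is named for HEK293T, a derivative that carries the SV40 large T antigen; the values used here do not tell them apart. The study used HEK293 as the line that does not bind epoxyeicosatrienoic acids, and the genes described here were not chosen for that purpose.

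HEK293 cells were derived from embryonic kidney cultures after transformation with adenoviral DNA, and they are known for transcribing neuronal genes such as neurofilaments beside genes of the developing kidney. In the embryo, kidney tubules arise where the ureteric bud, which carries the receptor RET, meets a mesenchyme marked by SIX2, SALL1 and the EYA factors. HOX genes encode the transcription factors that give cells their position along the body axis, and lines of different origin usually keep different HOX patterns.

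Levels are given in FPKM (fragments per kilobase of transcript, scaled to the mapped fragments of a library), which are per length, so that levels of different genes can be set side by side. Differences are HEK293 minus the mean of the 3 line means on the log2(FPKM + 0.5) scale, which understates the change of low genes. The test, limma, took in the 16295 of 23615 listed genes that reached 0.5 FPKM in 2 or more libraries, and an adjusted p under 0.05 was called. A gene at or above 0.5 FPKM in HEK293 alone entered the test only through HEK293. Such members favour higher calls and higher medians, and their number is given with the main list counts. Since each line was only collected in duplicate, the p-values measure the spread between those libraries, which may be technical. In bulk RNA, fewer cells of a type and less RNA per cell cannot be told apart.

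3 libraries stood apart from the rest: EaHy replicate 2 and both PC3M libraries. Small RNA genes took 65.2% to 83.6% of their summed FPKM, against 18.4% to 51.4% in the other 5 libraries, and the median log2 level of the replication histones was 7.97 to 9.62 in them and 0.79 to 2.72 in the other 5. The median FPKM of the tested genes was 5.752 and 7.4 in the HEK293 libraries and between 0.9339 and 5.587 in the other 6, and the median difference over all tested genes was +0.72 for HEK293. After quantile normalization this median was −0.02. Results are therefore given as deposited, and counts after quantile normalization and without the 3 histone-rich libraries are given for all genes and beside many of the list counts. The share of these library differences in any single result was not tested.

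HEK293 had 2142 genes higher than the mean of the other 3 lines, 13.1% of those tested, and 479 lower, 2.94%. After quantile normalization the calls were nearly even, with 1466 higher (9%) and 1337 lower (8.2%). Without the 3 histone-rich libraries they were 1701 (10.4%) and 946 (5.81%). List counts under these settings are to be read beside these shares. Both HEK293 libraries lay above all 6 others for 3447 genes (21.2%) and below all 6 for 219 (1.34%). A stricter count, in which HEK293 had to pass the test against each line separately, held 819 higher genes (5.03%) and 38 lower genes (0.233%). Of the 479 lower genes, 52 were listed at 0 in both HEK293 libraries. The 4 lines share 1 estimate of spread with 4 residual degrees of freedom, and both HEK293 libraries matter to the calls: without replicate 1 there were 793 higher and 46 lower genes, and without replicate 2 there were 666 and 32.

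**Figure D1:**
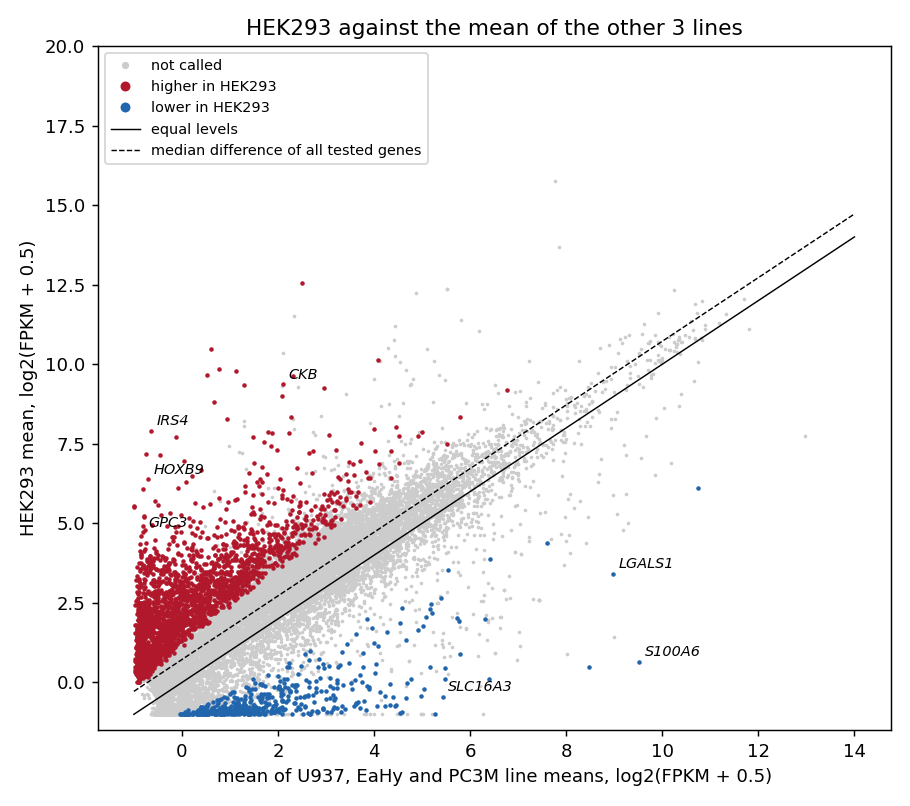
Mean level of each tested gene in HEK293 (vertical axis) against the mean of the U937, EaHy and PC3M line means (horizontal axis), both as log2(FPKM + 0.5). Called genes are coloured, the solid line marks equal levels and the dashed line the median difference of all tested genes (+0.72); X inactivation genes and Y-linked ones are not drawn. The 479 lower genes sit mainly near the floor of the HEK293 axis, with LGALS1 as a labelled gene that stays well above it.

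The 4 markers of HEK293 were all high in both of its libraries. IRS4, an insulin receptor substrate that docks signalling proteins, was at 260.3 and 221 FPKM in HEK293, against U937 at 0.595 and 0, EaHy at 0.456 and 0.0204, and PC3M at 0 and 0.00168, a difference of 8.56 ± 0.48 (SE; limma adjusted p = 0.000273). CKB, the brain form of creatine kinase, which regenerates ATP, was at 532 and 815 FPKM in HEK293, against U937 at 4.32 and 0.955, EaHy at 2.03 and 0.539, and PC3M at 16.6 and 19.5 (7.26 ± 0.64; limma adjusted p = 0.00049). Both genes were far above all 6 other libraries, and PC3M was the next highest line for CKB.

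NEFM, the medium neurofilament chain, was at 77.0 and 57.7 FPKM in HEK293, against U937 at 0.222 and 0, EaHy at 0.244 and 0, and both PC3M libraries at 0 (6.89 ± 0.39; limma adjusted p = 0.000273). CA2, a cytosolic carbonic anhydrase of renal tubules and other tissues, was at 98.4 and 206 FPKM in HEK293, against U937 at 0.268 and 0, EaHy at 0.155 and 0, and PC3M at 1.13 and 0.245 (7.61 ± 0.51; limma adjusted p = 0.000402). Neither gene overlapped between HEK293 and the other lines. In U937 and EaHy the low level of all 4 markers was higher in replicate 1: their summed FPKM was 5.41 in U937 replicate 1 and 0.955 in replicate 2, and 2.88 in EaHy replicate 1 and 0.56 in replicate 2.

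**Figure D2:**
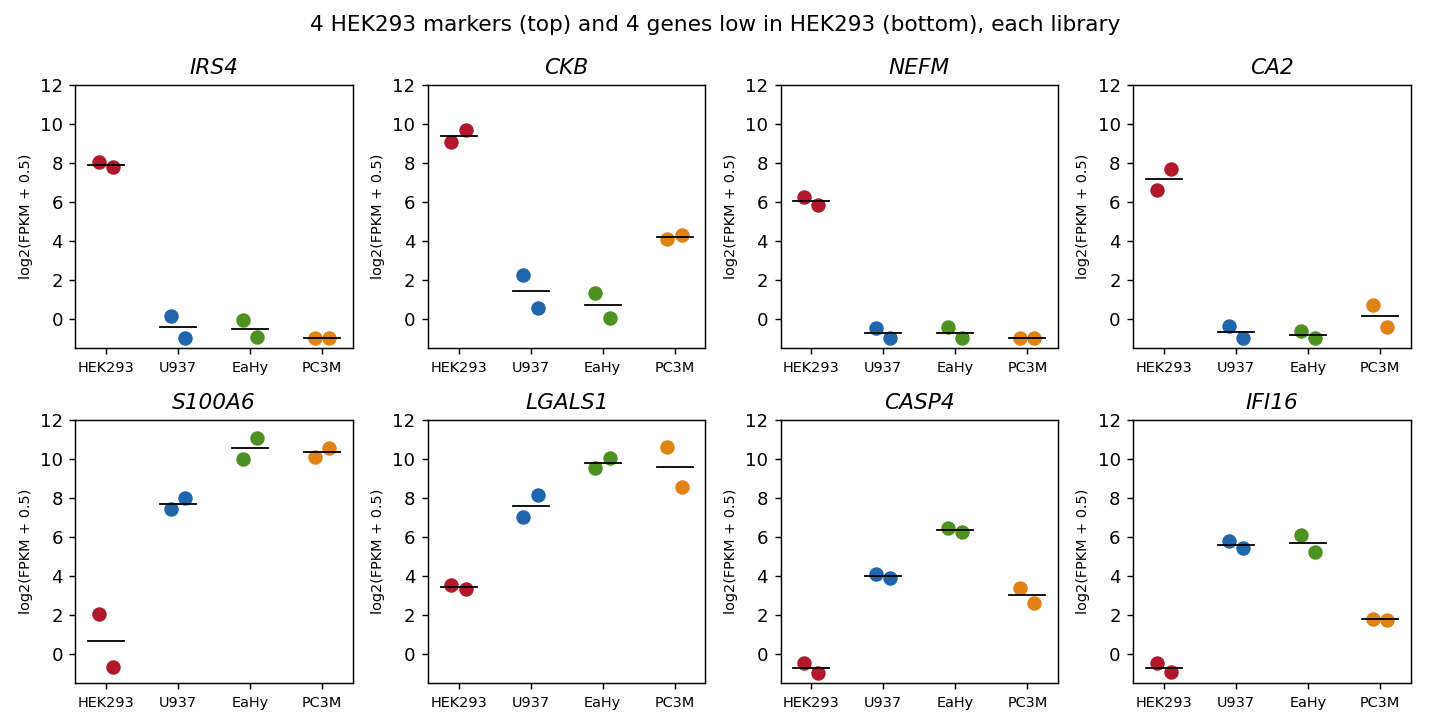
Level in each library, as log2(FPKM + 0.5), of the 4 HEK293 markers (top row) and of 4 genes that were low in HEK293 (bottom row); each point is a library and each bar the mean of a line. HEK293 lies above all 6 other libraries in the top row and below all 6 in the bottom row. For NEFM, CASP4 and IFI16 this follows from the rules for genes present or silent in HEK293 alone. The 2 HEK293 libraries differ most for S100A6, at 3.53 and 0.114 FPKM.

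Markers of the other lines were low in HEK293, with exceptions. The summed FPKM of 10 myeloid markers was 11.4 in HEK293 replicate 1, where 7 of the 10 reached 0.5, and 0.872 in replicate 2, where none did, against 138 to 5290 in U937 and EaHy and 2.64 and 4.4 in PC3M. CTSG, a neutrophil protease gene, was at 3.95 FPKM in HEK293 replicate 1 and listed at 0 in replicate 2. For 10 endothelial markers the sums were 11.6 and 21.5 in HEK293, most of it EGFL7 (8.36 and 17.9) and SOX18 (2.05 and 2.34). The sums were 354 and 589 in EaHy, 10.4 and 14.5 in U937, and 0.91 and 2 in PC3M. HEK293 was thus near U937 and above PC3M. CDH5, a defining marker of endothelium, was at 0.0950 and 0 in HEK293 and at most 0.179 in U937 and PC3M. For 10 epithelial and prostate markers the sums were 45.6 and 50.6 in HEK293, mostly KRT8 and KRT18, against 8.11 and 1.71 in U937, 1340 and 748 in EaHy and 333 and 79.1 in PC3M. KRT5 and KLK3 were listed at 0 in both HEK293 libraries, and PC3M was as low, at 0 and 0.00933 for KRT5 and 0 and 0.0138 for KLK3. CDH1 went the other way, at 1.82 and 2.50 FPKM in HEK293 and at most 0.487 elsewhere. The part of these levels in the results below was not tested.

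Across all genes, the largest differences against every line fell on a mixed group. AMOT, which encodes angiomotin, a tight junction protein that binds YAP, was at 123 and 166 FPKM in HEK293, against U937 at 0.285 and 0.00551, EaHy at 0.399 and 0.0119, and PC3M at 0 and 0.00279 (7.90 ± 0.43; limma adjusted p = 0.000273). NRN1, which encodes neuritin, a neurite growth protein, was at 56.8 and 39.4 FPKM in HEK293, against at most 1.26 elsewhere (6.08 ± 0.56). SLC6A15, a neutral amino acid transporter expressed in brain, was at 20.3 and 27.9 FPKM in HEK293, against at most 0.141 elsewhere (5.46 ± 0.34). These genes share near absence in the other 3 lines.

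BEX4, a small brain-expressed X-linked gene, was at 32.3 and 81.3 FPKM in HEK293 and at most 0.694 in the other 6 libraries. ALDH2, the mitochondrial aldehyde dehydrogenase, was at 26.9 and 53.2 FPKM in HEK293 and at most 0.861 elsewhere, and CALCB, a calcitonin gene-related peptide, was at 19.8 and 37.5 in HEK293 and at most 0.503 elsewhere. CKMT1B and CKMT1A, mitochondrial creatine kinase genes, were at 34.3 and 39.3 and at 33.3 and 38.6 FPKM in HEK293; they are near-identical copies, so the split between them is uncertain, and both stood beside the cytosolic CKB.

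Genes of early embryonic and fetal programmes were higher in HEK293 in 13 of 31 tested members and lower in 1, with a median difference of 0.97 beside 0.72 over all tested genes. 9 of the 13 passed against each line, and 7 members were at or above 0.5 FPKM in HEK293 alone. GPC3, a cell surface proteoglycan of fetal growth, was at 24.0 and 28.1 FPKM in HEK293, against U937 at 0.230 and 0, EaHy at 0.229 and 0, and PC3M at 0 and 0.0128 (5.54 ± 0.36; limma adjusted p = 0.000373). LIN28B, which blocks maturation of let-7 microRNAs, was at 17.9 and 23.5 FPKM in HEK293, with EaHy next at 4.22 and 2.93 (4.35 ± 0.38; limma adjusted p = 0.00049). EaHy was also the next line for IGF2BP1, an oncofetal RNA-binding protein, at 36.7 and 56.9 FPKM in HEK293 against 13 and 2.67 in EaHy (5.10 ± 0.60; limma adjusted p = 0.00127).

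The zinc finger factor SALL2 lay above all 6 other libraries too (4.49 ± 0.37; limma adjusted p = 0.000472). The single lower member was PEG10, a retrotransposon-derived imprinted gene, at 0.0372 and 0.125 FPKM in HEK293, against U937 at 0.0538 and 0.00272, EaHy at 7.25 and 3.21, and PC3M at 7.69 and 1.62 (−1.97 ± 0.56; limma adjusted p = 0.0471), so that HEK293 overlapped U937. The PEG10 call did not pass in 8 of 23 alternatives. AFP and GDF3, markers of fetal liver and of pluripotent cells, were listed at 0 in both HEK293 libraries. After quantile normalization 10 members were higher and 2 lower, and without the 3 histone-rich libraries 11 were higher, 3 were lower and the median was 0.14.

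Kidney development genes formed a clearer group: 28 of 40 tested members were higher in HEK293, none was lower, and the median difference was 2.22. 18 of the 28 passed against each line, and 13 members were at or above 0.5 FPKM in HEK293 alone and so were tested only through it. TFAP2A, an AP-2 transcription factor, was at 18.1 and 22.1 FPKM in HEK293, against U937 at 0.354 and 0.00885, EaHy at 0.942 and 0.0728, and PC3M at 0.802 and 0.212 (4.62 ± 0.50; limma adjusted p = 0.000888). FOXC1, a forkhead factor of nephric mesoderm, was the most abundant of these, at 65.8 and 79.6 FPKM in HEK293, against U937 at 2.53 and 5.18, EaHy at 2.66 and 0.648, and PC3M at 6.23 and 1.44 (4.58 ± 0.66; limma adjusted p = 0.00305). Neither factor overlapped between HEK293 and the other libraries.

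Factors of the cap mesenchyme, the progenitors of the nephron, were among them. SALL1, a zinc finger repressor needed for ureteric bud invasion in mice, was at 5.99 and 7.49 FPKM in HEK293 and at most 0.125 elsewhere (3.75 ± 0.30; limma adjusted p = 0.000437). SIX2, which keeps mouse nephron progenitors undifferentiated, was at 6.93 and 14.8 FPKM in HEK293, with PC3M replicate 1 next at 3.88 (3.66 ± 0.63; limma adjusted p = 0.00648). EYA1, a partner of SIX2, was at 4.03 and 5.70 FPKM in HEK293 and at most 0.271 elsewhere (3.15 ± 0.34; limma adjusted p = 0.000878). The ligand BMP7 passed as well (4.03 ± 0.49; limma adjusted p = 0.0014).

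Of the ureteric bud side, the receptor RET was at 1.63 and 0.989 FPKM in HEK293 and at most 0.126 elsewhere (1.73 ± 0.28; limma adjusted p = 0.00475). Its co-receptor GFRA1 was at 1.41 and 1.39 FPKM in HEK293 and at most 0.108 elsewhere (1.82 ± 0.25; limma adjusted p = 0.00258). PAX2 and LHX1, early nephric factors, were called higher at low levels, 0.672 and 0.860 FPKM for PAX2 and 1.19 and 0.687 for LHX1. Their paralog or partner genes PAX8, OSR1 and WNT9B were at or below 0.11 FPKM in both HEK293 libraries and were not tested. The list kept 23 higher and 0 lower members after quantile normalization, and 26 and 0 without the 3 histone-rich libraries. SIX2, EYA1, LHX1, PAX2, PAX8, OSR1, WNT9B, RET, GFRA1, AFP and GDF3 were chosen for description after their values were seen.

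The median of mature nephron genes did not follow that of the developmental ones. Of 48 listed, 25 were not tested, among them the podocyte gene NPHS1 and the tubule genes UMOD, SLC12A1 and AQP2, with UMOD and AQP2 listed at 0 in both HEK293 libraries. Of the 23 tested, 6 were higher in HEK293 (26.1%) and 2 lower (8.7%), against 13.1% and 2.94% of all tested genes. The median was −0.26, beside 0.72 over all tested genes, and 5 of the 23 were at or above 0.5 FPKM in HEK293 alone. Beside CA2, the higher members were at 1 to a few FPKM: LRP2, the megalin receptor of proximal tubules, was at 2.46 and 2.35 in HEK293 and at most 0.126 elsewhere (2.43 ± 0.27; limma adjusted p = 0.000982), and AQP3, a water channel, at 1.5 and 1.49 in HEK293 and at most 0.361 elsewhere (1.68 ± 0.31; limma adjusted p = 0.00904). ANPEP, a brush border peptidase also found on myeloid and endothelial cells, was at 0.266 and 0.0369 FPKM in HEK293, against U937 at 37.6 and 102, EaHy at 76.6 and 11.4, and PC3M at 0.890 and 0.211 (−4.27 ± 0.78; limma adjusted p = 0.00843), overlapping PC3M. PLA2R1, a phospholipase A2 receptor of podocytes, was the other lower member (−1.55 ± 0.42; limma adjusted p = 0.0419), and it did not pass in 14 of 23 alternatives. Among the higher members, AQP3 did not pass in 6 of 23. After quantile normalization 4 mature nephron genes were higher and 3 lower, without the 3 histone-rich libraries 6 and 5, and with both changes 5 and 9.

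Neuronal genes were higher in HEK293 in 24 of 44 tested members, 16 of them against each line, and lower in 1, with a median of 2.24. At or above 0.5 FPKM in HEK293 alone were 11 members. The neurofilament-type chains NEFM, NEFL and INA were called, and NEFH, the heavy neurofilament chain, was too low to be tested, at 0.0386 and 0.0775 FPKM in HEK293 and at most 0.089 elsewhere. INA, alpha-internexin, was at 6.84 and 11.6 FPKM in HEK293 and at most 0.051 elsewhere (4.19 ± 0.32; limma adjusted p = 0.000437), whereas NEFL, the light chain, was at 23.6 and 25.6 FPKM in HEK293 but also at 26.6 and 5.24 in PC3M (3.98 ± 0.60; limma adjusted p = 0.00379). NEFL is thus shared with PC3M in level, and NEFM and INA are not. INA and NEFL were also named after their values were seen.

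KIF1A, a kinesin that carries synaptic vesicle precursors along axons, was at 17.9 and 22.3 FPKM in HEK293, against U937 at 0.104 and 0.00522, EaHy at 0.205 and 0, and PC3M at 0 and 0.00758 (5.22 ± 0.34; limma adjusted p = 0.000373). BEX2, a relative of BEX4, was at 36.3 and 71.2 FPKM in HEK293, with U937 next at 7.06 and 10.6 (4.72 ± 0.48; limma adjusted p = 0.000708). DPYSL5, a collapsin response mediator of growing axons, was at 12.1 and 20.4 FPKM in HEK293 and at most 0.553 elsewhere (4.52 ± 0.41). Its relative DPYSL3 was the lower member, at 0.350 and 0.268 FPKM in HEK293, against U937 at 1.29 and 0.618, EaHy at 40.8 and 33.6, and PC3M at 13.2 and 2.24 (−3.09 ± 0.64; limma adjusted p = 0.0141). The 2 family members therefore lie on opposite sides. DPYSL3 is among the genes silent in HEK293 alone, described below, a rule that itself places HEK293 below all 6 others.

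Transcription factors of the nervous system were higher in 21 of 34 tested members and lower in none, with a median of 2.22, and 16 passed against each line. At or above 0.5 FPKM in HEK293 alone were 9 members. ZIC2, a zinc finger factor of the dorsal neural tube, was at 23.7 and 39.2 FPKM in HEK293 and at most 0.346 elsewhere (5.59 ± 0.41; limma adjusted p = 0.000437). EN2, a midbrain and hindbrain homeobox gene, was at 9.47 and 25.5 FPKM in HEK293 and at most 0.167 elsewhere (4.87 ± 0.43; limma adjusted p = 0.00049). DLX2, a forebrain interneuron factor, was at 12.9 and 33.3 FPKM in HEK293, with EaHy replicate 1 next at 1.53 (4.38 ± 0.60; limma adjusted p = 0.00237).

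The members called do not share 1 region of the nervous system: POU4F1 marks sensory neurons (26.5 and 22.8 FPKM in HEK293, with U937 next at 4.54 and 3.61), and ZIC5 the dorsal neural tube (7.33 and 10.6 FPKM in HEK293, at most 0.614 elsewhere). Of 83 neurotransmitter receptor and voltage-gated channel genes, 34 were tested, 6 of these at or above 0.5 FPKM in HEK293 alone. Of the 34, 16 were higher and none lower, with a median of 1.24. Among them was the calcium channel subunit CACNA2D2, at 2.85 and 4.18 FPKM in HEK293 and at most 0.134 elsewhere (2.84 ± 0.29; limma adjusted p = 0.000729).

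The channel count depended on scaling: after quantile normalization 5 members were higher and 3 lower, and without the 3 histone-rich libraries 9 and 4. The neuronal list gave 22 higher and 3 lower members after quantile normalization and 27 and 2 without the 3 libraries, and the neural transcription factors 18 and 0, and 20 and 0. Of 7 tested adrenal genes only PNMT, the enzyme that makes adrenaline, was higher, at 1.31 and 0.649 FPKM in HEK293 and at most 0.254 elsewhere (1.24 ± 0.35; limma adjusted p = 0.0454). PNMT passed in 6 of 22 alternatives; after quantile normalization no adrenal gene was called, and without the 3 libraries none was higher and 1 was lower. Of 13 tested clustered protocadherins, 1 was higher, with a median of −0.55; genes of these clusters share exons, so their values are uncertain.

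The HOX genes gave the highest share of all lists, with 28 of 36 tested members higher in HEK293, none lower, and a median of 3.16. Against each line 15 passed, and 6 members were at or above 0.5 FPKM in HEK293 alone. HOXB9, a posterior HOX gene, was at 64.8 and 108 FPKM in HEK293, against U937 at 0.152 and 0.00696, EaHy at 0.163 and 0, and PC3M at 0.180 and 0.235 (7.09 ± 0.40; limma adjusted p = 0.000273). HOXD10 was at 45.7 and 19.2 FPKM in HEK293 and at most 0.252 elsewhere (5.72 ± 0.43; limma adjusted p = 0.000437), and HOXD13, the last gene of its cluster, at 29.3 and 49.1 in HEK293, with PC3M next at 4.12 and 1.16 (5.29 ± 0.51; limma adjusted p = 0.000631). HOXB9 and HOXD10 were thus near absent from all 3 other lines.

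Other members were shared with a single line. HOXB7 was at 10.7 and 14.7 FPKM in HEK293 and at 14.5 and 10.7 in EaHy, but at most 0.164 in U937 and PC3M. HOXA10 was at 30.1 and 45.3 FPKM in HEK293 and at 34.3 and 28.5 in U937, but at most 5.04 in EaHy and PC3M. Both genes, chosen after their values were seen, were called against the mean of the lines yet overlapped between HEK293 and the line named. The HOX list kept 24 higher and 0 lower members after quantile normalization and 21 and 0 without the 3 histone-rich libraries.

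**Figure D3:**
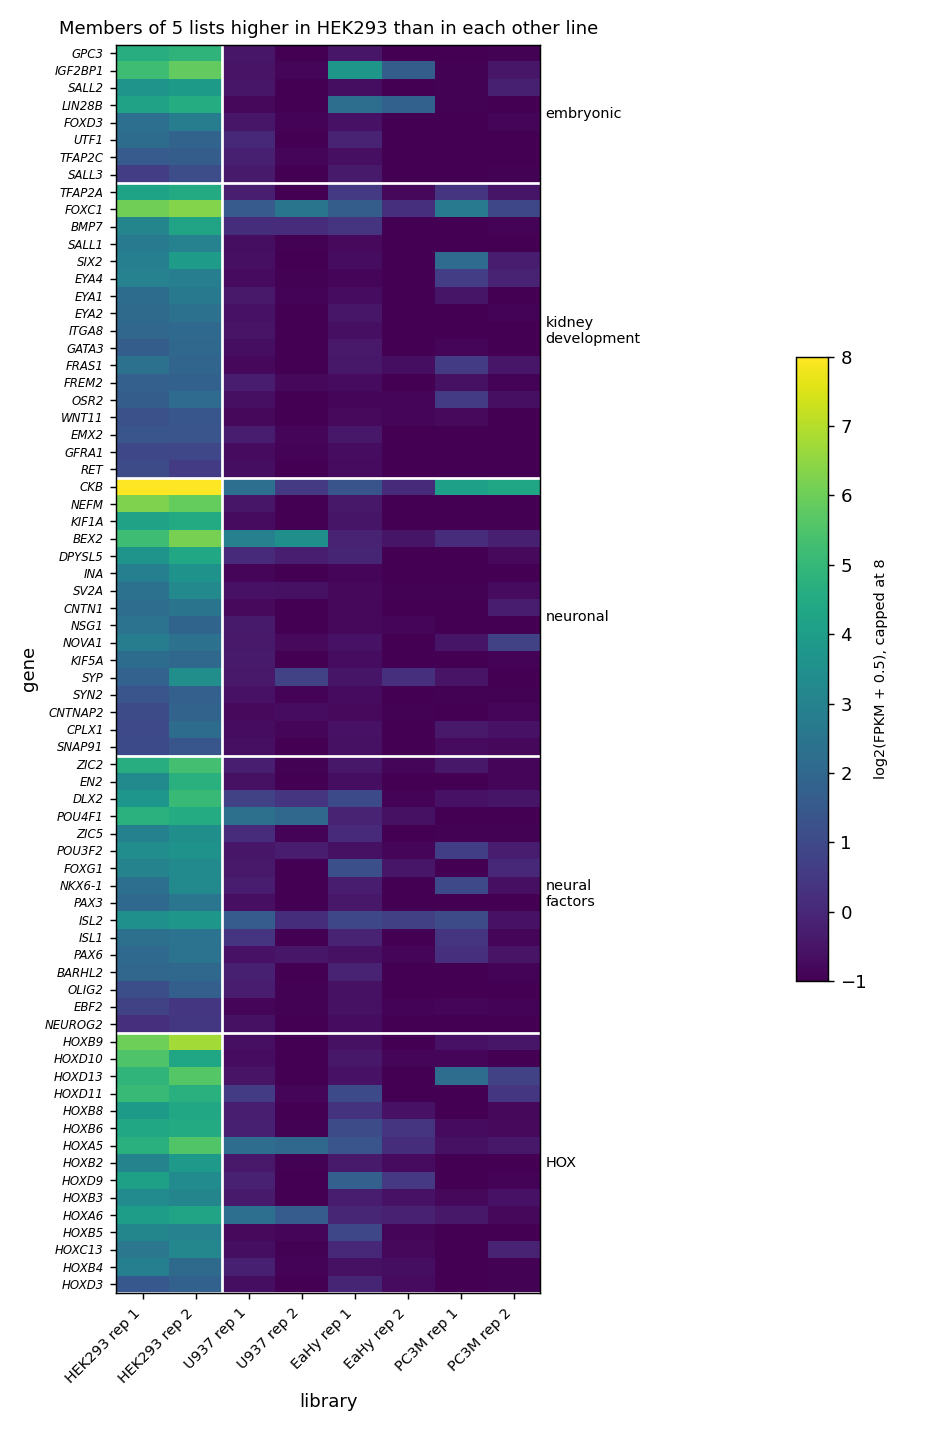
Level in each library, as log2(FPKM + 0.5) on the colour scale (capped at 8), of 72 members of 5 lists that were higher in HEK293 than in each other line, with HEK293 in the 2 leftmost columns. A gene in 2 lists is drawn once. The brightest cells outside HEK293 include CKB in PC3M and IGF2BP1 in EaHy, at 16.6 and 19.5 and at 13 and 2.67 FPKM.

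Epithelial genes were divided, with 8 of 32 tested members higher in HEK293, 9 lower and a median of −0.59. The higher ones included desmosome parts: DSG2, a desmosomal cadherin, was at 39.1 and 63.6 FPKM in HEK293, with PC3M next at 5.03 and 0.880 (5.38 ± 0.61; limma adjusted p = 0.00105), and DSP, desmoplakin, at 28.0 and 23.5 in HEK293, with PC3M next at 9.37 and 2.25 (4.49 ± 0.54; limma adjusted p = 0.00129). The desmosomal genes DSC2 and JUP were also higher. PKP3, a desmosomal plakophilin, was called lower, with differences of −4.35 to −1.98 in the alternatives, and did not pass in 7 of 23. The lower ones were led by KRT7 and LAMB3, a keratin and a laminin chain that were highest in EaHy, and KRT19, listed at 0 in both HEK293 libraries, was at 177 and 57.8 FPKM in PC3M (−2.63; limma adjusted p = 0.00839). The KRT19 difference was −0.11 with PC3M left out (limma adjusted p = 0.794) and −0.12 without the 3 histone-rich libraries (limma adjusted p = 0.742). SFN, at 0.300 and 0.263 FPKM in HEK293, was called lower (−2.13 ± 0.41; limma adjusted p = 0.0108) with PC3M at 86.6 and 77.8; with PC3M left out the difference was 0.17, and without the 3 histone-rich libraries 0.09. After quantile normalization 6 epithelial members were higher and 12 lower, and without the 3 libraries 8 and 6.

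Matrix and mesenchymal genes were also divided, with 10 of 45 tested members higher, 7 lower and a median of 0.40. NID1, a basement membrane linker, was at 38.9 and 47.7 FPKM in HEK293, with EaHy next at 3.62 and 4.49 (4.53 ± 0.43; limma adjusted p = 0.000616), and SNAI2, a repressor of epithelial genes, at 9.80 and 12.7 in HEK293, with PC3M next at 1.34 and 0.496 (3.98 ± 0.38). PLAU, the urokinase protease, was lower, at 1.39 and 0.543 FPKM in HEK293, against U937 at 8.27 and 17.0, EaHy at 91.0 and 52.0, and PC3M at 132 and 21.9 (−4.68 ± 0.75; limma adjusted p = 0.00496), below all 6. After quantile normalization 7 were higher and 11 lower, and without the 3 histone-rich libraries 9 and 14.

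Among endothelial genes, 16 of 34 tested members were lower in HEK293 and 3 higher, with a median of −1.36. No member was lower than in each line, and none was below all 6 other libraries. The higher ones included FLT4, the VEGFR3 receptor of lymphatic endothelium, at 12.6 and 15.3 FPKM in HEK293, against U937 at 0.449 and 0.114, EaHy at 0.343 and 0, and PC3M at 0.0174 and 0.137 (4.45 ± 0.38; limma adjusted p = 0.00049), which was thus low in the endothelial line itself. FLT1, the VEGFR1 receptor, was called higher (1.38 ± 0.38; limma adjusted p = 0.0435) at 4.19 and 5.16 FPKM in HEK293, yet EaHy was at 12.1 and 10.7. Its difference was −0.12 after quantile normalization without the 3 histone-rich libraries and −0.19 after quantile normalization with PC3M left out. Of 48 tested myeloid genes, 28 were lower in HEK293 and 1 higher, with a median of −1.89; the myeloid markers that HEK293 replicate 1 held were given above. After quantile normalization the endothelial list had 19 lower and 2 higher members and the myeloid list 34 and 1, and without the 3 histone-rich libraries they had 21 and 2, and 35 and 0. ARHGDIB, a GTPase regulator of blood cells, passed against each line, at 1.67 and 0.0359 FPKM in HEK293, against U937 at 366 and 718, EaHy at 174 and 100.1, and PC3M at 14.4 and 4.40 (−6.27 ± 0.74; limma adjusted p = 0.00127).

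**Figure D4:**
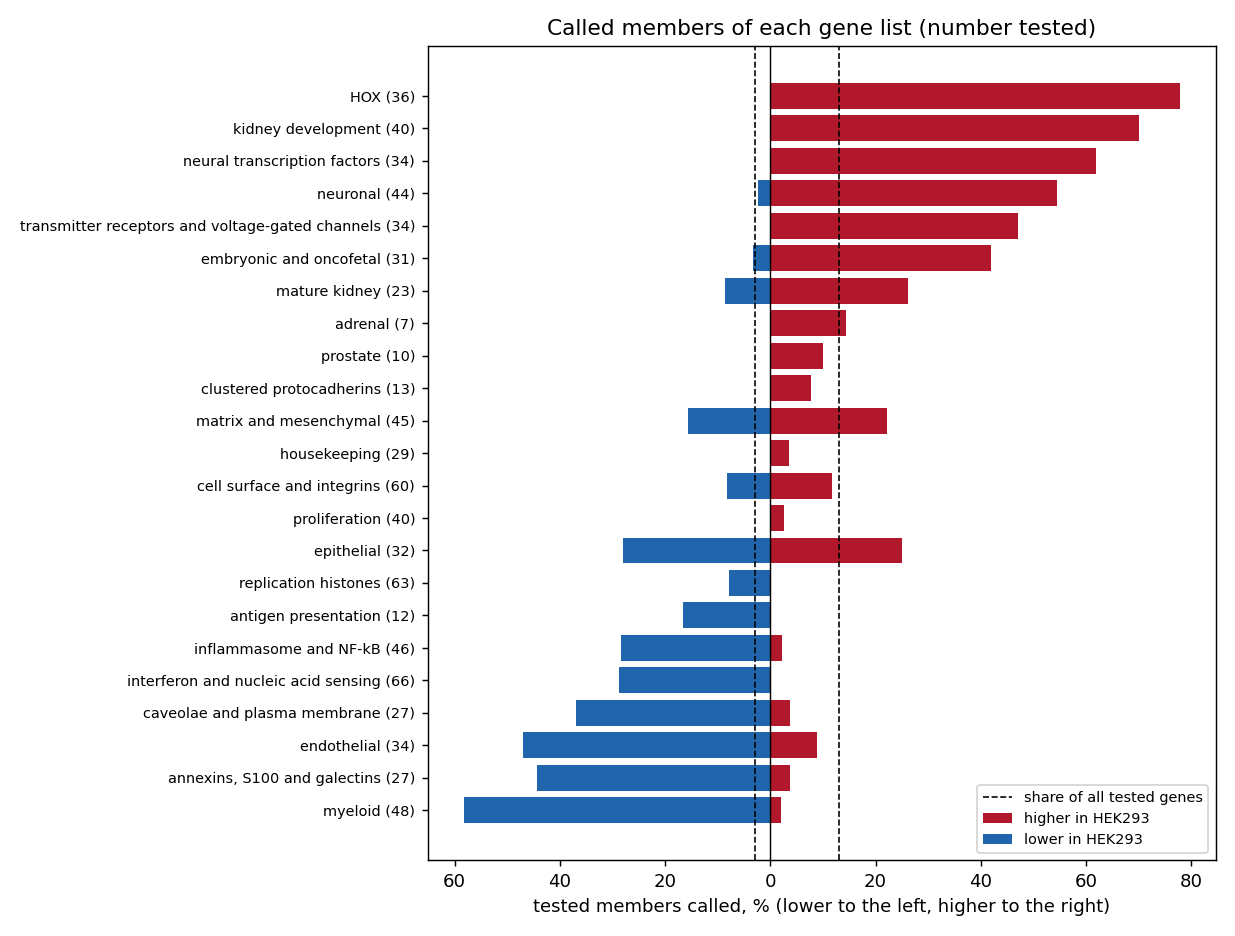
Percentage of the tested members of each gene list that were called higher in HEK293 (bars to the right) or lower (bars to the left), with the number tested in brackets. The dashed lines mark the same shares over all tested genes, 13.1% and 2.94%; HOX (77.8% higher) and kidney development (70% higher) are at the top and myeloid (58.3% lower) at the bottom.

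Calcium-binding S100 proteins, annexins and galectins were low in HEK293: 12 of 27 tested members were lower, 1 was higher, and the median was −1.69. S100A6, calcyclin, showed the largest fall of the 38 genes lower than in each line, at 3.53 and 0.114 FPKM in HEK293, against U937 at 170 and 251, EaHy at 1016 and 2157, and PC3M at 1097 and 1488 (−8.86 ± 0.78; limma adjusted p = 0.00049). LGALS1, galectin-1, was still present, at 11.2 and 9.36 FPKM in HEK293, against U937 at 130 and 277, EaHy at 729 and 1038, and PC3M at 1535 and 377 (−5.55 ± 0.69; limma adjusted p = 0.00154). S100A4, a metastasis-associated S100 protein, was at 1.64 and 1.12 FPKM in HEK293 and at least 13.3 elsewhere (−4.89 ± 0.67; limma adjusted p = 0.0024).

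S100A16 was low in HEK293 and in U937, at 0.666 and 0.151 FPKM in HEK293 and 0.124 and 0.123 in U937, against 128 and 207 in EaHy and 371 and 339 in PC3M. ANXA1, annexin A1, was at 4.42 and 2.75 FPKM in HEK293 and at least 8.84 elsewhere (−4.32 ± 0.61; limma adjusted p = 0.00264). S100A6 was lower in HEK293 by 10.22 on the log2 scale without HEK293 replicate 1 and by 7.5 without replicate 2, and passed in both fits. After quantile normalization 16 members were lower and none higher, and without the 3 histone-rich libraries 11 and 1. Among caveolar and plasma membrane genes, 10 of 27 were lower, 1 was higher and the median was −1.16, with no member lower than in each line; after quantile normalization 15 were lower, and without the 3 libraries 11.

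Genes of interferon response and nucleic acid sensing were lower in HEK293 in 19 of 66 tested members and higher in none, with a median of −1.22. The DNA sensing path was represented at its sensors and its adaptor. IFI16, a nuclear DNA sensor, was at 0.214 and 0.0144 FPKM in HEK293, against U937 at 55.1 and 41.6, EaHy at 68.4 and 36.5, and PC3M at 2.96 and 2.79 (−5.06 ± 0.49; limma adjusted p = 0.000631). MB21D1, which encodes cGAS, the enzyme that makes cGAMP on cytosolic DNA, was at 0.106 and 0.0227 FPKM in HEK293, against U937 at 8.60 and 12.6, EaHy at 4.07 and 1.74, and PC3M at 22.2 and 7.07 (−3.78 ± 0.57; limma adjusted p = 0.00368). TMEM173, which encodes STING, the receptor of cGAMP, was at 0.309 and 0.507 FPKM in HEK293, against U937 at 23.2 and 28.5, EaHy at 48.5 and 54.9, and PC3M at 4.63 and 0.596 (−4.03 ± 0.63; limma adjusted p = 0.00428).

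IFI16 and MB21D1 are among the genes silent in HEK293 alone, described below, a rule that itself places them below all 6 other libraries. TMEM173 was below all 6 as well, with a small margin to PC3M replicate 2. The interferon-induced gene IFI44 was at 0.0890 and 0 FPKM in HEK293 and at least 1.29 elsewhere (−3.68 ± 0.43; limma adjusted p = 0.00121). After quantile normalization 38 members were lower and none higher, and without the 3 histone-rich libraries 34 were lower and 1 higher; without HEK293 replicate 1 or replicate 2 the count fell to 4 and 2. Of 29 antigen presentation genes 12 were tested, and the other 17, among them HLA, TAP and immunoproteasome genes of the same locus, were listed at 0 in both HEK293 libraries; 2 of the 12 were lower, CD74 and NLRC5, and none higher, with a median of −1.25, and after quantile normalization 8 were lower.

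Inflammasome and NF-kB genes were lower in 13 of 46 tested members and higher in 1, with a median of −0.86, and the 4 that passed against each line belong to lytic cell death and IL-18. CASP4, the caspase that senses cytosolic lipopolysaccharide, was at 0.213 and 0 FPKM in HEK293, against U937 at 16.3 and 14.4, EaHy at 87.3 and 76.2, and PC3M at 9.91 and 5.52 (−5.19 ± 0.48; limma adjusted p = 0.000571). GSDMD, gasdermin D, the pore that inflammatory caspases open, was at 0.0869 and 0.101 FPKM in HEK293, against U937 at 8.61 and 20.8, EaHy at 15.5 and 25, and PC3M at 58.6 and 8.67 (−4.98 ± 0.75; limma adjusted p = 0.00366). MLKL, the pore-forming effector of necroptosis, was at 0.0202 and 0.0316 FPKM in HEK293, against U937 at 2.51 and 12.8, EaHy at 18.2 and 9.18, and PC3M at 11.1 and 2.80 (−3.94 ± 0.72; limma adjusted p = 0.00862).

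These effectors are also among the genes silent in HEK293 alone, so lying below all 6 other libraries follows from that rule. The call for MLKL was lost with either HEK293 library left out (adjusted p = 0.0906 and 0.1 in limma), with differences of −3.92 and −3.96. IL18, a cytokine matured by caspase-1, was at 0.537 and 0.835 FPKM in HEK293 and at least 6.78 elsewhere (−3.46 ± 0.50; limma adjusted p = 0.00315). CASP1 itself was listed at 0 in both HEK293 libraries, with FPKM of 6.71 and 9.53 for U937, 26.2 and 11.2 for EaHy, and 0.0336 and 0 for PC3M, so that PC3M was as low. The higher member was PTGS2, the inducible cyclooxygenase, at 0.529 and 0.508 FPKM in HEK293 and at most 0.0726 elsewhere. It was thus just over the limit of 0.5 FPKM, and it passed in 10 of 22 alternatives, with differences of 0.24 to 2.26. After quantile normalization 21 members were lower, and without the 3 histone-rich libraries 18.

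A total of 51 genes were silent in HEK293 alone, meaning under 0.5 FPKM in both of its libraries and at or above 0.5 in all 6 others, 0.216% of the 23615 genes listed; the mirror set, present in HEK293 alone, held 597 (2.53%). Of the 51, 44 were also called lower, and of the 597, 556 were called higher, counts that the rule itself favours. The median FPKM of the 51 was 0.106 and 0.1014 in HEK293 and between 2.744 and 6.234 in the other libraries. The set grew to 86 genes after upper-quartile scaling, to 172 when line means replaced single libraries, and to 282 without the 3 histone-rich libraries, and without PC3M replicate 2 it held 79.

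The silent genes with the highest floor in the other lines were SLC16A3, LTBR, GSDMD, SNURF, CASP4, C14orf169 and SNRPN, each at 3.66 FPKM or more in all 6 other libraries. The promoters of 4 of them are printed with those of 3 genes at the other extreme, IRS4, AMOT and BEX4, because these genes are near the detection floor on one side and abundant on the other. Sequences are RefSeq windows of 300 bases (250 before to 50 after the gene start) in GRCh38.p14, another build than that of the deposited values, on the gene's own strand; CG dinucleotides are in capitals. Silent SLC16A3 lies at chr17:82228185-82228484 (+), LTBR at chr12:6383912-6384211 (+), SNURF at chr15:24954737-24955036 (+) and CASP4 at chr11:104968525-104968824 (−). The abundant IRS4 lies at chrX:108736514-108736813 (−), AMOT at chrX:112840782-112841081 (−) and BEX4 at chrX:103214842-103215141 (+).
SLC16A3: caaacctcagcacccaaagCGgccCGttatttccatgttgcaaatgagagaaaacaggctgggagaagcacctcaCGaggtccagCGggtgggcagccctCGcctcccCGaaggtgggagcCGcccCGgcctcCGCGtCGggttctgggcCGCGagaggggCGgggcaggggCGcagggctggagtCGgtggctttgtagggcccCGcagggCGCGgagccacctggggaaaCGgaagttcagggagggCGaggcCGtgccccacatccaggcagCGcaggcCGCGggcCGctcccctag
LTBR: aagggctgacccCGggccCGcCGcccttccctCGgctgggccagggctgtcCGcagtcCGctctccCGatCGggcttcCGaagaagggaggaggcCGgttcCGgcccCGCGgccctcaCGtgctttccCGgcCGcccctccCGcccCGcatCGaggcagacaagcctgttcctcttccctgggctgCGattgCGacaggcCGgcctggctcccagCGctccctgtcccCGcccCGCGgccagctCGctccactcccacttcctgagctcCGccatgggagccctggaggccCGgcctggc
SNURF: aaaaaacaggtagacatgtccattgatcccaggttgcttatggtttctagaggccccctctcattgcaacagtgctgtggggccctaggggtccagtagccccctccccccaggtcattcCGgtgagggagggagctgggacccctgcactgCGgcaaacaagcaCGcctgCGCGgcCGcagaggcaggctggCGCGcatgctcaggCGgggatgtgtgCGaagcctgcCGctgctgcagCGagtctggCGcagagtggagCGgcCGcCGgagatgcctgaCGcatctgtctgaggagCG
CASP4: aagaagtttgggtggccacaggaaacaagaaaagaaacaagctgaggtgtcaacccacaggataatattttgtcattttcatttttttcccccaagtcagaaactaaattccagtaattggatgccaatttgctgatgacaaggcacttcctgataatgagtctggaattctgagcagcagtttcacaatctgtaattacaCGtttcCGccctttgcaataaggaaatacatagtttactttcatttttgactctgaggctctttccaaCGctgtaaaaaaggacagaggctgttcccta
IRS4: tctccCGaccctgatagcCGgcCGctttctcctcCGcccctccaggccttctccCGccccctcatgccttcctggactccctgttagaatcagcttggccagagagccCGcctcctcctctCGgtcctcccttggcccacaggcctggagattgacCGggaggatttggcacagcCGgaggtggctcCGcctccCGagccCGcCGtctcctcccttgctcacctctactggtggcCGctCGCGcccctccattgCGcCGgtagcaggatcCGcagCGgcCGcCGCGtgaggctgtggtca
AMOT: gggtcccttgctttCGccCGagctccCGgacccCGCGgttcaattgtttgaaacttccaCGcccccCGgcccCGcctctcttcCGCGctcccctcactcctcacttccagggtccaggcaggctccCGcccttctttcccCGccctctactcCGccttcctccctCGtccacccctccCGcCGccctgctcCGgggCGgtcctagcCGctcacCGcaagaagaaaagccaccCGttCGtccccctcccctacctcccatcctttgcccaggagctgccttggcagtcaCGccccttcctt
BEX4: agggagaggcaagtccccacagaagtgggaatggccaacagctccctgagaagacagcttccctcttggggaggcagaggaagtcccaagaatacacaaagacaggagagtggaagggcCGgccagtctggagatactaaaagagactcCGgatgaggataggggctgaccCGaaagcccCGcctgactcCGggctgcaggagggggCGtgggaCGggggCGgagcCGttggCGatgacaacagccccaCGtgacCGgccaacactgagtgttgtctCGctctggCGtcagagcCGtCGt
The windows of SLC16A3, LTBR and SNURF held 26, 29 and 18 CG, and that of CASP4 held 3, whereas those of IRS4, AMOT and BEX4 held 23, 23 and 16. The median over the 27305 windows in the table was 14, and 95.8% held at least 1 CG. The letters TATAAA, searched on both strands, were in none of the 7 windows and in 12% of all windows. CG-rich windows thus occur among both the silent and the abundant genes shown.

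SLC16A3, the lactate exporter MCT4, was at 0.275 and 0.197 FPKM in HEK293, against U937 at 33.4 and 165, EaHy at 32.6 and 26.5, and PC3M at 55.5 and 22.8 (−5.88 ± 0.70; limma adjusted p = 0.00128). LTBR, the lymphotoxin beta receptor, was at 0.0544 and 0.00972 FPKM in HEK293, against U937 at 13.9 and 45.2, EaHy at 24.0 and 25.4, and PC3M at 51.1 and 8.62 (−5.50 ± 0.75; limma adjusted p = 0.00228). Both genes were expressed in all 6 other libraries at more than 8 FPKM.

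SNRPN and SNURF, which share an imprinted bicistronic locus, so that reads cannot be cleanly divided between them, were both silent. SNRPN was at 0.0376 and 2.07e-07 FPKM in HEK293, against U937 at 22.8 and 34.4, EaHy at 34.1 and 46.0, and PC3M at 29.5 and 3.66 (−5.49 ± 0.74; limma adjusted p = 0.00217), and SNURF at 0.117 and 0.0829 in HEK293 and at least 6.36 elsewhere (−4.33 ± 0.56; limma adjusted p = 0.00182). That both lay below all 6 other libraries follows from the rule for silent genes. Both kept their call in all 23 alternatives.

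DUSP6, a phosphatase that shuts off ERK, was at 0.296 and 0.200 FPKM in HEK293, against U937 at 18.4 and 25.5, EaHy at 23.6 and 48.9, and PC3M at 19 and 3.14 (−4.64 ± 0.69; limma adjusted p = 0.00355). RIN1, a RAS effector, was at 0.0547 and 0.0733 FPKM in HEK293 and at least 2.63 elsewhere (−3.98 ± 0.70), and SERPINB8, a protease inhibitor, was at 0.0227 and 0.103 in HEK293 and at least 2.86 elsewhere (−4.23 ± 0.55). CLEC2B, a ligand of natural killer cell receptors, was at 0.0369 and 0.0099 FPKM in HEK293 and at least 2.13 elsewhere (−4.25 ± 0.44). Without HEK293 replicate 2, the adjusted p of DUSP6 was 0.0529 in limma. Of the 3 histone genes in this set, HIST1H3C and HIST1H3D were highest in the 3 histone-rich libraries and HIST1H2BB in EaHy replicate 2.

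At the edge of the rule, ERAP2 (0.446 and 0.498 FPKM in HEK293), FERMT1 and FLJ23867 were just inside on the HEK293 side. TMEM173, PSMD5 and CD44 were just outside, with 1 HEK293 library between 0.507 and 0.518 FPKM. CD44, the hyaluronan receptor, was at 0.518 and 0.0332 FPKM in HEK293, against U937 at 15.7 and 17.6, EaHy at 168 and 38.7, and PC3M at 11.5 and 3.27 (−4.84 ± 0.72; limma adjusted p = 0.00354), and thus lower than in each line. It was 1 of 5 lower members (8.33%) among 60 tested cell surface and integrin genes, beside 7 higher ones (11.7%) and a median of −0.43. Over all tested genes these shares were 2.94% and 13.1%. After quantile normalization 22 of the 60 were lower and 4 higher, and the lower share over all tested genes was then 8.2%. Without the 3 histone-rich libraries 15 were lower and 6 higher, with 5.81% of all tested genes lower.

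**Figure D5:**
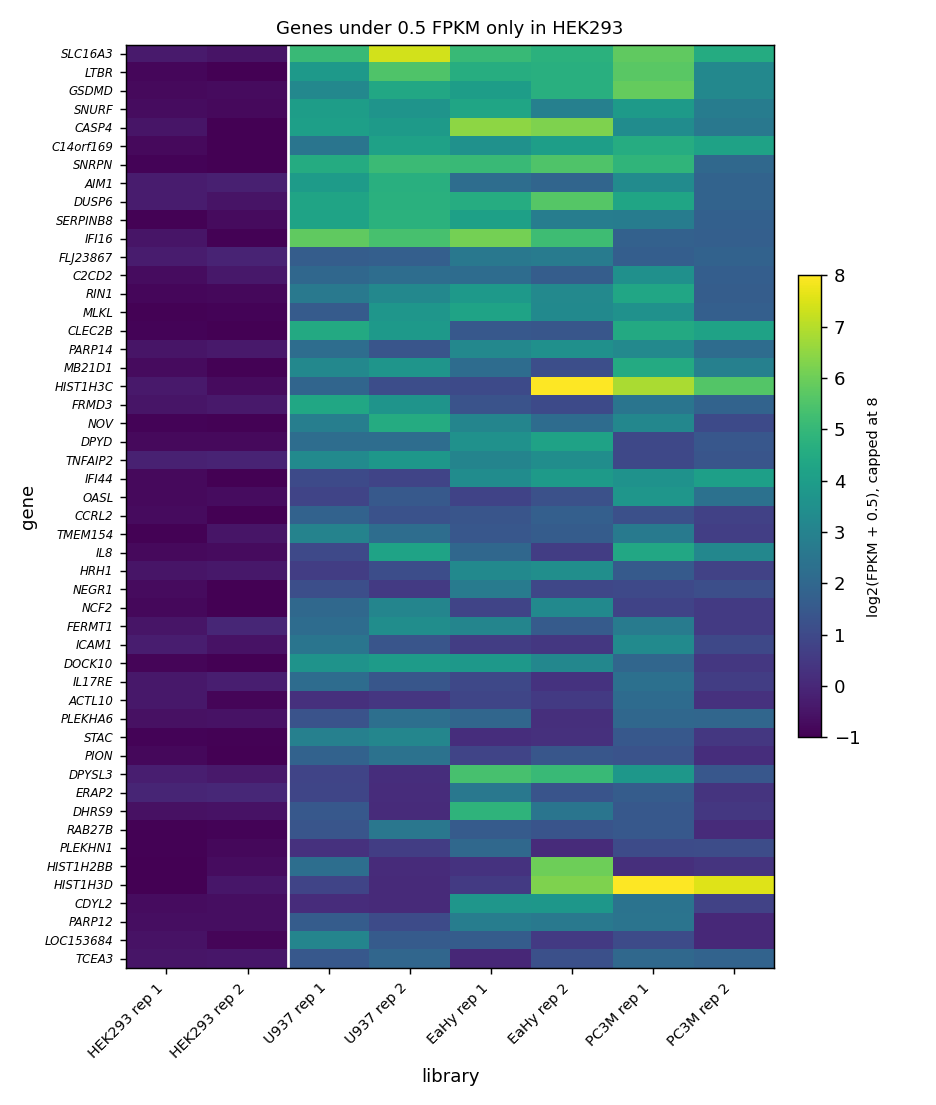
Level in each library, as log2(FPKM + 0.5) on the colour scale (capped at 8), of 50 of the 51 genes under 0.5 FPKM in both HEK293 libraries, left of the white line, and at or above 0.5 in the other 6. Genes are ordered by their lowest level outside HEK293, from SLC16A3 at 22.8 FPKM at the top.

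Genes present in HEK293 alone were led by AMOT, HOXB9, NEFM, the CKMT1 pair, GPC3, ZIC2 and SLC6A15. Further down stood NRSN2, which encodes a neuronal vesicle protein (17.5 and 27.2 FPKM in HEK293, at most 0.446 elsewhere), REEP2, an endoplasmic reticulum shaping protein of neurons (15.4 and 27.3 in HEK293, at most 0.272 elsewhere), and EFHD1, a mitochondrial calcium-binding protein (14.5 and 17.5 in HEK293, at most 0.145 elsewhere). The median FPKM of the 597 was 1.701 and 1.83 in HEK293, against U937 at 0.1392 and 0.009909, EaHy at 0.1486 and 0, and PC3M at 0 and 0.01869, so replicate 1 of U937 and of EaHy held more of these genes than replicate 2. Of the 597, 31 were on the X chromosome (5.19%, against 3.49% of all tested genes), and of the 51 silent genes none was.

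Lists of general cell functions moved little or moved with the libraries. Of 29 housekeeping genes 1 was higher and none lower, with a median of 0.61, and of 40 proliferation genes 1 was higher and none lower, with a median of 1.17, both beside 0.72 over all tested genes. Of 63 tested replication histones 5 were lower and none higher, with a median of −3.02, which was 0.07 without the 3 histone-rich libraries. Of 10 tested prostate genes only PMEPA1, a TGF-beta target, was higher, and after quantile normalization none was higher and 3 were lower.

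Counts of called list members were smaller with either HEK293 library left out. Without replicate 1 and without replicate 2, the higher members numbered 20 and 17 for kidney development, 18 and 15 for neuronal genes, 13 in both for neural transcription factors, 18 and 16 for HOX, 9 and 8 for embryonic genes, and 6 and 5 for channels. The lower members numbered 6 and 3 for myeloid genes, 0 in both for endothelial and epithelial genes, 6 and 4 for annexins, S100 and galectins, 1 in both for caveolae, and 4 in both for the inflammasome list. The medians moved less: that of kidney development was 2.33 and 2.11, that of HOX 3.06 and 3.09, and that of the myeloid list −1.99 and −1.72.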

How the data were processed

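Total RNA of 4 established human cell lines was depleted of ribosomal RNA, prepared with a NEBNext Ultra kit and read in pairs, per the labels' protocols, with 2 libraries per line. The authors deposited FPKM for each gene symbol, 1 column per library. The submitters' processing notes name cutadapt, TopHat2 2.0.11, Cufflinks 2.2.1 and the build hg19; the gene annotation is not given in the sources used here. Counts were not used, so depth in reads is unknown, and no counting interval or count-based test is given; the summed FPKM per library ranged from 497389 to 1926028.

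FPKM were analysed as log2(FPKM + 0.5) with limma 3.58.1 in R 4.3.3, with a term per line, a prior spread that follows the level, and two-sided p-values adjusted by the Benjamini-Hochberg method over the 16295 genes that reached 0.5 FPKM in 2 or more of 8 libraries. HEK293 was compared with the mean of the 3 other line means and with each line. No scaling between libraries was added in the main values; upper-quartile scaling, quantile normalization, other pseudocounts and filters, other priors, a replicate block and leaving out libraries were alternatives. The fit was tested on simulated data. Replicate differences correlated between lines at −0.15 to 0.33, so replicate numbers were not taken as pairs.

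The comparison, the 23 gene lists and the naming rule were chosen with earlier results of these data known. Lists are described by counts and medians, without a set test. The rule named the 4 markers, the 15 genes in each direction with the largest smallest difference to the 3 lines, the 15 silent-only and 15 present-only genes with the highest floor, and up to 5 called members per list and direction (2 with the highest mean where none was called); X inactivation genes, Y-linked ones, small RNA and unnamed loci were left out. Tested genes named outside it, such as CASP1 and those so described in the text, untested list members and genes at the edge of a rule were chosen after their values were seen. Promoter sequences come from a RefSeq table of GRCh38.p14; with 36 of the 51 silent and 413 of the 597 present-only genes matched, under the 80% needed, base composition was not compared between the sets. Some genes of these lists are counted but not reported here by name, and they are not drawn in the plots of levels by library.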

Additional observations from a re-analysis of the deposited data

How the results depend on the processing

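All 146 genes named by the rule were called, which the rule itself favours, since most of its parts rank called genes by their difference. Of these, 144 kept their direction in every alternative run on them. The alternatives were 23 for each but PNMT, LGALS2 and PTGS2, with 22, since these 3 did not pass the filter of 1 FPKM. FLT1 and SFN reversed as given above, with −0.12 and −0.19 for FLT1 and 0.09 and 0.17 for SFN. The cause was not tested. Direction was kept more often than the call. Of 23 alternatives, the call was lost in 19 for HIST1H2BH, 14 for PCDHGA11, 9 for CACNA1H and 7 for KRT7, and in none for the 4 markers. The counts moved more than the directions. Genes higher than the mean of the other lines numbered 2142, 644 when a fold of at least 2 was tested, and 666 to 3748 when each library was left out in turn; a line left with 1 library takes its spread from the others. Genes lower numbered 479, 814 after upper-quartile scaling, 1337 after quantile normalization, 88 at a fold of at least 2, 946 without the 3 histone-rich libraries, 745 with PC3M left out, and 32 to 687 when each library was left out.

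Genes higher than in each line numbered 819, 494 with a pseudocount of 0.1, 425 after quantile normalization, 304 at a fold of at least 2, and 404 to 940 when each library was left out. Genes lower than in each line numbered 38, 22 without a filter, 84 after upper-quartile scaling, 134 after quantile normalization, 10 at a fold of at least 2, 181 without the 3 histone-rich libraries, 164 with PC3M left out, and 3 to 35 when each library was left out. Quantile normalization without the 3 histone-rich libraries, and with PC3M left out, were chosen after the data were seen; they gave 1491 and 1392 genes lower than the mean and 346 and 344 lower than in each line. Silent-only genes numbered 51, 52 to 79 when each library was left out, 86 after upper-quartile scaling, 172 by line means and 282 without the 3 libraries; present-only genes numbered 597, and 1013 by line means.

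With the replicate block, 2048 genes were higher and 440 lower; the replicate numbers do not pair the samples, so this is a description. The share of higher calls was 81.7% as deposited, 65.7% after upper-quartile scaling (median difference 0.18) and 52.3% after quantile normalization. FPKM give no read depth, so differences among genes under 0.5 FPKM are the least certain.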

Other observations

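Receptors and nuclear factors of developmental signalling were among the genes higher in HEK293 than in each other line; these genes were chosen after their values were seen. SMO, the hedgehog signal transducer, was at 11.7 and 22.6 FPKM in HEK293 and at most 0.911 elsewhere (4.61 ± 0.48; limma adjusted p = 0.000735). FGFR3, a fibroblast growth factor receptor, was at 8.71 and 17.0 FPKM in HEK293 and at most 0.289 elsewhere (4.48 ± 0.38; limma adjusted p = 0.00049), and FGFR2 at 9.71 and 13.1 in HEK293 and at most 0.675 elsewhere. LEF1, a nuclear partner of beta-catenin, was at 7.89 and 12.6 FPKM in HEK293 and at most 0.217 elsewhere, and VANGL2, a planar cell polarity protein, at 6.37 and 10.4 in HEK293 and at most 0.148 elsewhere. All 5 lay above all 6 other libraries.

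Among genes lower than in each line, also chosen after their values were seen, the ETS factors ETV4 and ETV5, known as targets of ERK signalling, stood beside DUSP6. ETV4 was at 0.659 and 0.468 FPKM in HEK293 and at least 7.33 elsewhere (−3.51 ± 0.58; limma adjusted p = 0.00549), and ETV5 at 0.791 and 0.261 in HEK293 and at least 3.36 elsewhere (−3.24 ± 0.56; limma adjusted p = 0.00695). SPRY4 was not called (−1.25 ± 0.50; limma adjusted p = 0.125), and SPRY2, an inhibitor of the same path, was at 8.14 and 11.3 FPKM in HEK293 and between 0.924 and 10.3 elsewhere.

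By chromosome, called higher genes made up 24.5% of the 241 tested protein-coding genes of chromosome 13 and 24.0% of the 504 of chromosome X, against 13.8% over all 13966. Chromosome 14 had a median difference of 0.01, against 0.75 over all. The lines differed in this: its median was 0.50 against U937, −0.11 against EaHy and −0.16 against PC3M, beside 0.26, 0.68 and 1.29 over all. For chromosome 13 these medians were 0.09, 1.21 and 1.99, and for chromosome X 0.51, 0.95 and 1.86.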
